A study of Mus musculus with 9 samples.

Results

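Mature medullary thymic epithelial cells (mTEChi, sorted for high surface MHC class II) that lacked Aire were set against mTEClo, sorted for low surface class II, to describe which differences of maturation were present without Aire. This used 2 libraries of the 9 in the series, the library labelled Aire-KO, called Aire-KO mTEChi here, and the mTEClo library. Levels are CPM, reads of an entry per 1000000 reads in entries, over the 30794 RefSeq transcript entries that both tables hold, and those whose 2 normalised counts summed to 10 or more, 28735 of them, were compared. The 2 libraries come from different pairs. Aire-KO mTEChi was paired with wild-type (WT) mTEChi, the Aire pair, and mTEClo was paired with WT mTEChi of the same mice, the maturation pair. The experiment and the group therefore cannot be told apart in any ratio of Aire-KO mTEChi to mTEClo.

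Medullary thymic epithelial cells express genes of many other tissues and present the products to developing T cells, which deletes or diverts those that recognise the body's own proteins. They mature from mTEClo, which hold progenitors and cells that secrete the chemokine Ccl21, to mTEChi, which carry much class II and the costimulators Cd80 and Cd86. The transcriptional regulator Aire is switched on during this step and raises the expression of many tissue-restricted genes, while mTEClo also hold cells past the Aire-expressing stage, such as keratin-rich cells and tuft cells.

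All mice were B6 and 4 weeks old, and thymi were pooled, 4 to a pool, so each library is 1 pool of mice. Genotypes were Aire-/- for Aire-KO mTEChi and WT for mTEClo and for both mTEChi libraries set beside them, with no treatment. Cells were sorted as CD45- Ly51 low with high or low I-A/E, the class II molecules, and the sort used no epithelial marker. The class II genes are therefore the gate itself and their levels describe the sort. Libraries were poly-A selected and not directional, and reads of antisense or overlapping genes cannot be told apart.

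The 4 libraries held 74161592 to 195444567 reads in entries, fewest in mTEClo and 143001134 in Aire-KO mTEChi, where 3 reads equal 0.0210 CPM. Of the entries, 13.6% had no read in Aire-KO mTEChi and 9.14% none in its WT partner, against 3.13% in mTEClo and 3.05% in mTEChi of the maturation pair. The entry NR_046233, the precursor of ribosomal RNA, took 3.77% of reads in Aire-KO mTEChi, 5.35% in mTEClo, 0.666% in mTEChi of the maturation pair and 0.763% in WT mTEChi of the Aire pair. Aire-KO mTEChi and mTEClo had 1 library each. The folds therefore describe these libraries, and no p-value is given for them. Below, the 4 levels of a gene stand in the order Aire-KO mTEChi, mTEClo, mTEChi of the maturation pair, WT mTEChi of the Aire pair. A fold is Aire-KO mTEChi against mTEClo unless said otherwise, followed by its exact 95% interval, and a count of 0 was taken as 3 reads. Per the paper, paired reads were trimmed and pooled as single reads, so both ends of 1 fragment may count. PCR also makes several reads of 1 molecule. These intervals therefore cover no more than counting error of reads and are too narrow for counts of molecules.

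Aire (NR_073358, chr10:77492767-77506355 of mm9, minus strand) was at 661, 14.4, 444 and 259 CPM, 45.9-fold higher (43.2 to 48.8). Its RNA was high in all 3 mTEChi libraries and highest in the one labelled Aire-KO. The entry sums reads over all exons and says nothing of the protein, so it does not test the genotype label. Levels of some other markers of the labels follow. The costimulator gene Cd80 was at 104, 9.196, 126 and 89.6 CPM, and the class II chain gene H2-Aa at 6942, 1534, 5533 and 5775 CPM, low in mTEClo alone. Keratin genes of the other population ran the opposite way, with Krt5 at 819, 4014, 647 and 1081 CPM and Krt14 at 423, 1579, 314 and 421 CPM. The chemokine Ccl21a was at 338, 2489, 126 and 338 CPM, but its near-identical copies share reads and its level is uncertain. Not all markers of the labels separated the populations. The integrin chains Itga6 and Itgb4, taken as markers of mTEClo, were within 2-fold between Aire-KO mTEChi and mTEClo. Ccl22, taken as a marker of mTEChi, was less than 2-fold above mTEClo in Aire-KO mTEChi. The levels of these genes are given below. The epithelial adhesion gene Epcam was at 311, 401, 419 and 449.9 CPM, within 2-fold over all 4 libraries.

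Over all entries, 1625 (5.66%) were at least 3-fold higher in Aire-KO mTEChi than in mTEClo, 8655 (30.1%) were lower by that much, and 14926 (51.9%) within 2-fold. The median ratio was 0.758. The excess of lower entries lay at low levels. The lower entries had a median of 0.809 CPM in mTEClo and 2413 of them had no read in Aire-KO mTEChi, while the higher entries had a median of 20.1 CPM in Aire-KO mTEChi. Among the 14863 entries with 10 or more CPM in either library, 1046 were higher and 1483 lower, a split chosen after the data were seen. With other scale factors the median of all entries moved by up to 0.26 on the log2 scale and the share of higher entries among those past 3-fold went from 15.8% to 21.6%. A ratio chained within pairs, Aire-KO to WT mTEChi times mTEChi to mTEClo, which compares no libraries across pairs, gave 2487 entries higher and 6986 lower, or 26.3% higher among those past 3-fold.

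For size, the mTEChi library of the maturation pair was at least 3-fold above mTEClo in 3655 of 29212 entries (12.5%), called maturation-higher, below it by as much in 3540 (12.1%), called maturation-lower, and within 2-fold in 61.1%. WT mTEChi of the Aire pair was above the same mTEClo library in 3043 of 28968 (10.5%) and below in 4034 (13.9%). These 3 comparisons share the mTEClo library, so their values are given side by side only. The 2 WT mTEChi libraries, which differ in experiment and not in label, were at least 3-fold apart in 1446 of 27638 entries (5.23%), and within 2-fold in 85.5%, against 35.8% at least 3-fold apart for Aire-KO mTEChi and mTEClo.

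Between Aire-KO and WT mTEChi, 23.4% of 26761 entries were at least 3-fold lower without Aire, 1.27% at least 3-fold higher and 65.2% within 2-fold. The 2 pairs have no library in common, so the entries that differed with maturation in one can be classed by the ratio of Aire-KO to WT mTEChi in the other. Of the 3655 maturation-higher entries, 3588 had enough reads in both pairs. Of these, 1324 (36.9%) were within 2-fold between Aire-KO and WT mTEChi and 1699 (47.4%) were at least 3-fold lower without Aire, against 65.3% and 23.3% of all 26706 entries. A further 89 (2.48%) were at least 3-fold higher without Aire, against 1.24% of all. Level went with class. The entries lower without Aire had a median of 3.80 CPM in mTEChi of the maturation pair, and those within 2-fold 17.2 CPM. Among the 1514 maturation-higher entries with 10 or more CPM in that pair, 853 (56.3%) were within 2-fold and 345 (22.8%) lower without Aire, against 82.9% and 8.24% of the 15504 entries at that level.

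Set against mTEClo, the 1323 maturation-higher entries that were within 2-fold of WT and had enough reads had a median ratio of 3.91 in Aire-KO mTEChi, beside 4.65 in mTEChi of the maturation pair. Their median level was 13.8 CPM in Aire-KO mTEChi and 3.09 CPM in mTEClo. The entries lower without Aire had a median ratio of 0.288 to mTEClo, with median levels of 0.133 CPM in Aire-KO mTEChi and 0.566 CPM in mTEClo. Most of these entries were thus lower in Aire-KO mTEChi than in mTEClo, and not only lower than in WT mTEChi. Both medians share libraries with the ratios that chose the entries and are descriptions.

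**Figure D1:**
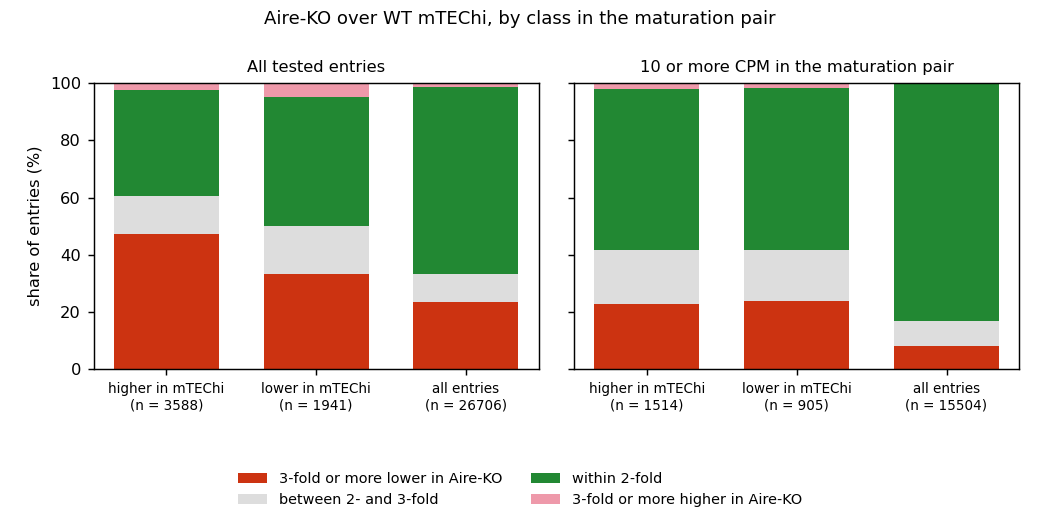
Stacked bars give the share of entries (%) in each class of the Aire-KO to WT mTEChi ratio, for entries at least 3-fold higher or lower in mTEChi than in mTEClo of the maturation pair and for all entries, over all tested entries (left) and those with 10 or more CPM in the maturation pair (right). The class at least 3-fold lower in Aire-KO holds 47.4% of the maturation-higher entries and 23.3% of all entries on the left, and 22.8% and 8.24% on the right.

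**Figure D2:**
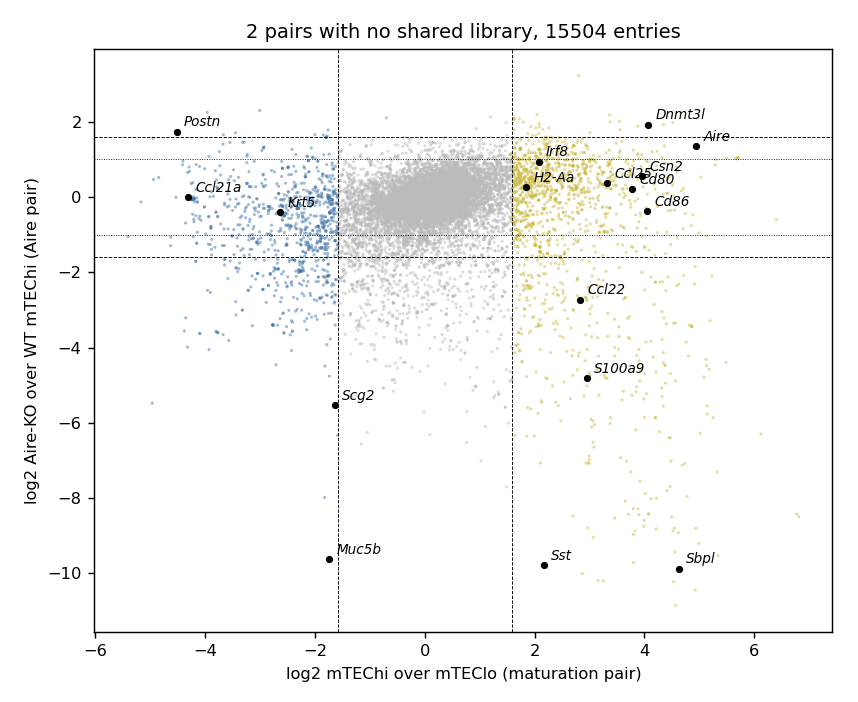
Each point is 1 of 15504 entries with 10 or more CPM in the maturation pair, with the log2 ratio of mTEChi to mTEClo on the horizontal axis and that of Aire-KO to WT mTEChi on the vertical axis. Dashed lines mark 3-fold and dotted lines 2-fold. H2-Aa, Cd80, Irf8, Ccl25 and Csn2 lie at the right between the dotted lines, and Sst, Sbpl and Ccl22 lie at the right below the lower dashed line.

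The class II chain genes are targets of Ciita, the master coactivator of class II transcription. It acts through factors bound at a shared promoter module that includes a CCAAT box, on the other strand ATTGG. For the class II genes on chromosome 17, the match to GATTGG on the strand of the gene nearest the start follows where 1 lies close to it. Letters in capitals are the match, in a window of 24 bases from the RefSeq promoters of GRCm38.p6, 5′ to 3′ on the strand of the gene.
H2-Aa, chr17:34287858-34287881, minus strand: gaattttctGATTGGttctggcga
H2-Eb1, chr17:34305798-34305821, plus strand: tttgatgctGATTGGctcccagca
H2-DMb1, chr17:34153120-34153143, plus strand: tcactcagtGATTGGtctgacctg
H2-DMb2, chr17:34145149-34145172, plus strand: tcacttagtGATTGGactgactta
H2-Oa, chr17:34092326-34092349, plus strand: aactgctctGATTGGctgcttacc
H2-Ob, chr17:34238838-34238861, plus strand: ttcgctcttGATTGGttaacagtg

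The match starts 44 to 91 bases before the transcript start in these 6 genes, 49 in H2-Aa and 62 in H2-DMb1, and H2-DMa, not shown, has one 199 bases before its start. Of the 19 genes of the class II list, 15 have a promoter in the table, which covers 250 bases before to 50 after the start. GATTGG or its reverse complement CCAATC was found in 10 of the 15 on either strand and in 9 on the strand of the gene, against 16.1% and 8.71% of all 32851 promoters. The 9 and 10 are counts of genes, and the 15 genes hold 19 promoters, while the shares are of promoters, so the units differ. Both counts include Marchf1 and Rfxank, and the 10 also Rfx5, which encode no class II chain. A match is a run of letters and not a measured binding site, and its part in the levels was not tested.

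Of the 19 class II genes, 9 were at least 3-fold higher in Aire-KO mTEChi than in mTEClo and 2 at least 3-fold lower, with a median ratio of 2.96. Here and for the lists below, the same values over all entries were 5.66% higher, 30.1% lower and a median ratio of 0.758. H2-Aa was 4.53-fold higher (4.499 to 4.55) and the chain gene H2-Ab1, at 6351, 2236, 5431 and 5239 CPM, 2.84-fold higher (2.83 to 2.86). Ciita itself was at 323, 64.8, 309 and 177 CPM, 4.98-fold higher (4.83 to 5.13). Every mTEChi library was above mTEClo for these genes, which the gate on class II protein selects. Genes that act on class II inside the cell were high as well. Ctss, the protease that trims the invariant chain, was at 252, 32.3, 182 and 177 CPM, 7.79-fold higher (7.47 to 8.12). H2-Oa and H2-Ob, the subunits of the inhibitor of peptide exchange, were at 396, 44.9, 278 and 369 CPM and at 141, 12.9, 94 and 77.6 CPM. H2-Ob was 10.95-fold higher (10.3 to 11.7), the largest ratio of the list. The 2 genes past 3-fold in the other direction were Ctsl, the protease that cortical epithelium uses, at 178, 859, 171 and 210.2 CPM, and Marchf1, a ubiquitin ligase that removes class II from the surface, at 0.357, 1.46, 2.69 and 1.53 CPM. All 8 class II genes that were at least 3-fold higher in mTEChi of the maturation pair were within 2-fold between Aire-KO and WT mTEChi. Here and below, such counts stand beside 36.9% within 2-fold and 47.4% at least 3-fold lower of all maturation-higher entries. At 10 or more CPM these shares were 56.3% and 22.8%. For maturation-lower entries they were 45.0% and 33.3%, or 56.9% and 23.8% at 10 or more CPM. MHC class I and its peptide loading, which the gate does not use, had a median ratio of 1.08, with none of 18 genes past 3-fold. H2-K1 was at 2890.4, 3309, 4126 and 4395 CPM and the shared light chain B2m at 4102, 3569.9, 4821 and 5386 CPM.

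Among 18 costimulatory and coinhibitory genes, 7 were at least 3-fold higher in Aire-KO mTEChi and 4 at least 3-fold lower, with a median ratio of 1.97. The share lower was below the 30.1% of all entries. Cd80, the ligand of CD28 and CTLA-4, was 11.3-fold higher (10.5 to 12.2), and its partner Cd86, at 22.9, 1.81, 29.9 and 29.6 CPM, was 12.7-fold higher (10.6 to 15.2). The CD27 ligand Cd70 was at 36.1, 2.89, 45.5 and 29.8 CPM and the receptor Cd40, which takes up signals from T cells, at 142, 21.9, 208 and 111 CPM. All 3 mTEChi libraries stood well above mTEClo for these genes. Icosl, the ICOS ligand, was at 475, 52.2, 409.9 and 196 CPM, 9.11-fold higher (8.82 to 9.41), and its level in WT mTEChi of the Aire pair was the lowest of the 3 mTEChi libraries. Of the 8 genes of the list that were maturation-higher, 6 were within 2-fold of WT without Aire and 1, Tnfsf4, the ligand of OX40, was at least 3-fold lower, at 0.119, 0.526, 4.06 and 2.84 CPM. The inhibitory ligand Vtcn1 was 30.7-fold lower (16.7 to 62.6), at 0.0769, 2.36, 1.28 and 2.42 CPM, and Lgals9 was at 55.7, 262, 55.04 and 123 CPM.

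**Figure D3:**
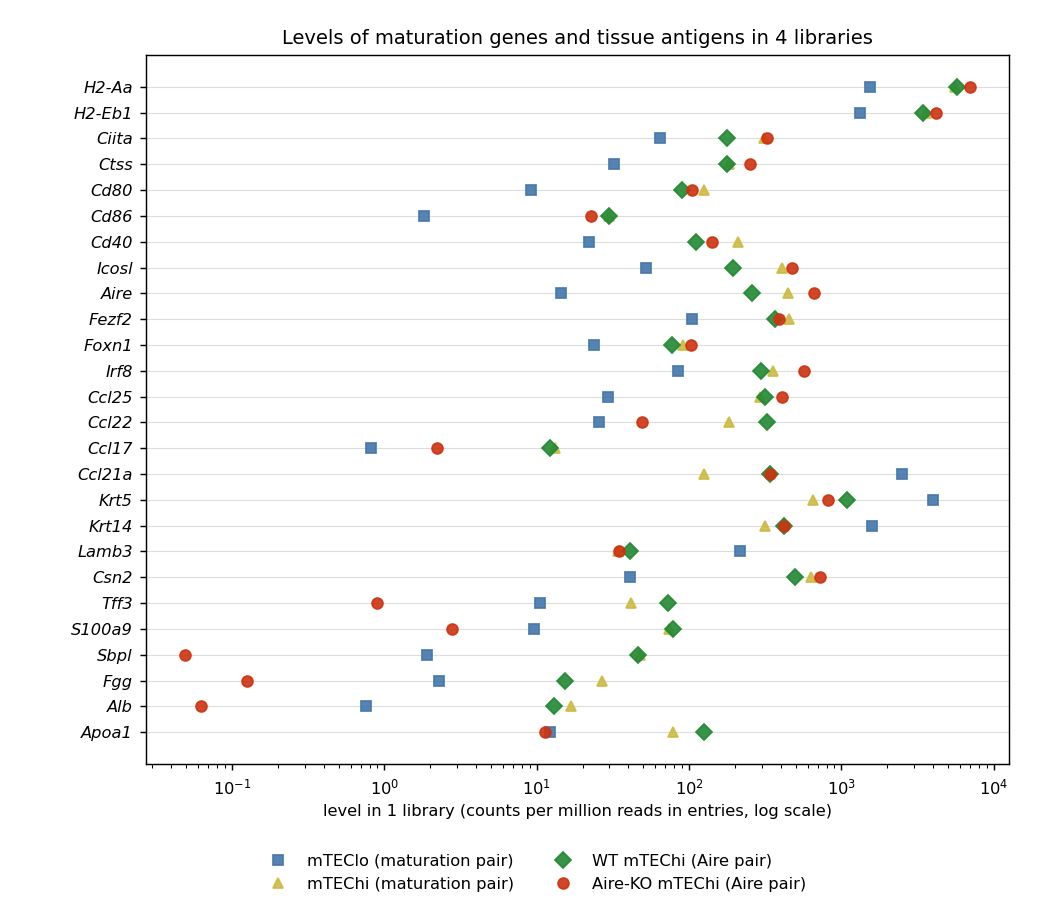
Levels of 26 genes (CPM, log scale) in the 4 libraries, 1 point a library, with no point where a library has no read. For Cd80, Cd86, Ciita and Ccl25 the Aire-KO point lies with both WT mTEChi points and right of mTEClo, while for Tff3, S100a9, Sbpl, Fgg and Alb it lies far left of both WT mTEChi points.

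The receptors and mediators of RANK, CD40 and lymphotoxin signalling, which drive the maturation of these cells, had a median ratio of 1.82 over 27 genes, with 4 at least 3-fold higher and 2 at least 3-fold lower. Higher ones included the decoy receptor of RANK ligand, Tnfrsf11b, at 197, 38.9, 229 and 135 CPM, the adaptor Traf6, at 142, 42.6, 134 and 85.4 CPM, and the NF-kB subunit Relb, at 287, 90.8, 219.7 and 183 CPM. The inhibitor Nfkbia, itself a target of the pathway, was at 1214, 394, 1224 and 1266 CPM. The 3 genes of this list that were maturation-higher, Tnfrsf11b, Nfkbia and Traf6, were all within 2-fold between Aire-KO and WT mTEChi. Lower ones were the deubiquitinase and pathway inhibitor Tnfaip3, at 68.9, 302, 150.4 and 189 CPM, and Traf5, at 3.48, 23.6, 5.57 and 7.55 CPM.

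Of 42 transcription factors of thymic epithelium, 8 were at least 3-fold higher and 11 at least 3-fold lower, and the median ratio was 0.565. The share lower was near the 30.1% of all entries, while the share higher, 19.0%, was above their 5.66%. Fezf2, which drives another set of tissue genes in these cells, was at 389.5, 105, 451 and 365 CPM, 3.702-fold higher (3.61 to 3.79). Foxn1, the master factor of thymic epithelium, was at 103, 23.6, 91.9 and 77.5 CPM, and Irf8 at 569.9, 85.1, 358 and 296 CPM, 6.697-fold higher (6.53 to 6.87). Insm1, at 257, 23.7, 190.3 and 134 CPM, and Tbx21, at 48.6, 4.81, 57.3 and 55.4 CPM, were 10.9-fold higher and 10.1-fold higher. The levels of these genes in Aire-KO mTEChi were close to or above those of WT mTEChi, and of the 9 maturation-higher genes of the list 7 were within 2-fold between Aire-KO and WT mTEChi. Factors of differentiated lineages were among the lower ones. Hnf4a of gut and liver was at 0.476, 5.41, 6.85 and 8.21 CPM, Spdef of goblet cells at 0.294, 4.52, 4.49 and 6.49 CPM and the interferon factor Irf7 at 33.3, 385, 54.8 and 137 CPM. In Hnf4a and Spdef both WT mTEChi libraries were near or above mTEClo, and in Irf7 all mTEChi libraries were below it.

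The cell cycle list had a median ratio of 2.18 over 32 genes, with 7 at least 3-fold higher and none at least 3-fold lower. The mitotic kinase Cdk1 was at 36.3, 4.73, 44.5 and 28.8 CPM, 7.68-fold higher (6.89 to 8.58), and Ccnb2, its cyclin partner, at 22.5, 3.09, 16.7 and 10.2 CPM. Cdc20, which activates the anaphase-promoting complex, was at 28.1, 6.08, 30.3 and 16.5 CPM. Genes of DNA replication differed less, with the helicase subunit Mcm6 at 50.5, 33.4, 67.6 and 30.2 CPM and the clamp gene Pcna at 71.3, 39.9, 87.1 and 71.9 CPM. Of the 18 maturation-higher genes of this list, 15 were within 2-fold between Aire-KO and WT mTEChi, none was at least 3-fold lower and Mki67 was at least 3-fold higher, at 81.1, 33.9, 132 and 26.1 CPM. Top2a, a topoisomerase gene of dividing cells, was at 31.96, 12.03, 78.3 and 17.7 CPM. It and Mki67 were at higher levels in mTEChi of the maturation pair than in WT mTEChi of the Aire pair, which carry the same label. Over the list, 18 genes were at least 3-fold above mTEClo in the first, with a median ratio of 3.48, and 4 in the second, with a median ratio of 1.63. The median ratio of the second to the first was 0.512, so the WT library set against Aire-KO mTEChi had the lower cell cycle levels of the 2.

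Chemokine genes were divided. Over 23 genes the median ratio was 0.80, with 1 at least 3-fold higher and 7 at least 3-fold lower. These lay near the 0.758, 5.66% and 30.1% of all entries. The median ratio to mTEClo was 2.04 in mTEChi of the maturation pair and 3.36 in WT mTEChi of the Aire pair. Ccl25, which attracts thymocyte precursors, was the higher one, at 405, 29.3, 291 and 313 CPM, 13.8-fold higher (13.3 to 14.5). The Ccr4 ligands Ccl17, at 2.21, 0.823, 13.2 and 12.2 CPM, and Ccl22, at 49.3, 25.6, 182 and 326 CPM, were far below both WT mTEChi libraries in Aire-KO mTEChi, though above mTEClo. Ccl5, which attracts T cells, was at 31.1, 13.6, 92.9 and 139 CPM, and Xcl1, which attracts cross-presenting dendritic cells, at 0.03496, 0.121, 9.302 and 7.13 CPM, below mTEClo. Of the 9 maturation-higher chemokines, 7 were at least 3-fold lower without Aire and 2, Ccl25 and Cxcl9, were within 2-fold. The chemokines of mTEClo and stroma were lower in every mTEChi library, with the homing factor Cxcl12 at 6.78, 90.2, 9.72 and 11.4 CPM and Cxcl14 at 10.6, 63.2, 4.81 and 7.08 CPM.

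Genes known to need Aire had a median ratio to mTEClo of 0.156 in Aire-KO mTEChi, 7.71 in mTEChi of the maturation pair and 6.71 in WT mTEChi of the Aire pair. Of 27 genes, 2 were at least 3-fold higher in Aire-KO mTEChi than in mTEClo and 18 at least 3-fold lower. Somatostatin (Sst), a hormone of gut and islet, was at 0, 5.66, 25.4 and 18.5 CPM. With its count of 0 taken as 3 reads it was 270.0-fold lower in Aire-KO mTEChi than in mTEClo, and the interval began at 218.6. The neuronal calcium-binding gene Calb2 was at 0.02797, 2.05, 28.6 and 23.5 CPM, and the salivary protein gene Sbpl at 0.04895, 1.91, 47.4 and 46.1 CPM. In all 3, Aire-KO mTEChi was below mTEClo while both WT mTEChi libraries were above it. Insulin (Ins2) was at 0.02098, 0.836, 8.401 and 10.97 CPM, the trefoil factor Tff3 at 0.895, 10.5, 41.8 and 72.9 CPM and the liver glycogen synthase Gys2 at 0.00699, 0.755, 9.38 and 5.78 CPM. The neutrophil alarmin S100a8, at 9.93, 5.18, 109 and 102 CPM, was above mTEClo in Aire-KO mTEChi but below both WT mTEChi libraries. The milk casein gene Csn2, at 725, 41.01, 636 and 493 CPM, was the exception of the list in level, 17.7-fold higher (17.04 to 18.3) and within 2-fold of WT, and the casein Csn3, at 3.07, 0.566, 5.32 and 5.25 CPM, was the other gene past 3-fold. The list was chosen for its known need of Aire, and 14 of its 17 maturation-higher genes were at least 3-fold lower in Aire-KO than in WT mTEChi.

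Pancreas and liver antigens had a median ratio of 0.391, with 1 of 28 at least 3-fold higher in Aire-KO mTEChi than in mTEClo and 13 at least 3-fold lower. The ratio to mTEClo was 4.03 in mTEChi of the maturation pair and 5.29 in WT mTEChi of the Aire pair. The apolipoprotein gene Apoa1 was at 11.3, 12.3, 78.1 and 126 CPM, level with mTEClo in Aire-KO mTEChi. The clotting gene Fga was at 0, 0.957, 9.45 and 4.34 CPM and the lipase gene Pnlip at 0.01399, 0.324, 2.96 and 2.703 CPM, both below mTEClo. The glucagon gene Gcg, at 2.69, 22.1, 17.9 and 16.5 CPM, was 8.23-fold lower (7.36 to 9.22), and both WT mTEChi libraries were slightly below mTEClo too. Apoh, a plasma glycoprotein gene, was the one at least 3-fold higher, at 2.07, 0.472, 5.06 and 3.32 CPM. Of the 17 maturation-higher genes of this list, 15 were at least 3-fold lower in Aire-KO than in WT mTEChi and Apoh alone was within 2-fold.

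The Fezf2-linked genes had a median ratio of 1.91, with 3 of 13 at least 3-fold higher and 1 at least 3-fold lower. Fabp7, a fatty acid carrier of brain, was at 5.85, 0.553, 7.598 and 5.39 CPM, and Maoa, which breaks down amines, at 46.99, 5.43, 28.3 and 25.2 CPM. The apolipoprotein gene Apoa4, at 48.6, 52.3, 299.8 and 645 CPM, was level with mTEClo in Aire-KO mTEChi and far below both WT mTEChi libraries. Of the 8 maturation-higher genes of the list, 3 were within 2-fold of WT mTEChi of the Aire pair and 3 at least 3-fold lower. These shares were near the 36.9% and 47.4% of all maturation-higher entries. Antigens held not to need Aire in these cells had a median ratio of 0.546, with 1 of 13 at least 3-fold higher and 6 at least 3-fold lower. The synuclein gene Sncg was at 319, 33.97, 126 and 225 CPM, 9.39-fold higher (9.02 to 9.77), thyroglobulin (Tg) at 6.87, 2.91, 18.8 and 9.12 CPM and the GABA enzyme Gad1 at 6.96, 3.29, 23.5 and 12.5 CPM. Those 3 were the maturation-higher genes of the list, and all were within 2-fold between Aire-KO and WT mTEChi of the Aire pair. Against mTEChi of the maturation pair, Aire-KO mTEChi was over 2-fold lower in Tg and Gad1 and over 2-fold higher in Sncg. Over the whole list 4 of 13 were at least 3-fold lower in Aire-KO than in WT mTEChi, with a median ratio of 0.448 against 0.834 for all entries. Apoe, a lipid carrier that macrophages and stroma also express, was 18.5-fold lower (18.1 to 18.8), at 86.7, 1600.0, 107 and 207 CPM.

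The genes of mTEClo and progenitors were lower. Of 23, none was at least 3-fold higher in Aire-KO mTEChi and 13 were at least 3-fold lower, with a median ratio of 0.268. Krt5 was 4.899-fold lower (4.87 to 4.93) and Krt14 3.73-fold lower (3.695 to 3.77). Lifr, the LIF receptor, was at 62.4, 353, 20.5 and 35.5 CPM, the activin antagonist Fst at 3.895, 32.8, 2.23 and 3.54 CPM and the growth factor Bmp4 at 0.287, 2.97, 0.287 and 0.355 CPM. In each, all 3 mTEChi libraries lay well below mTEClo. The stem cell marker Lgr5 was at 0.00699, 2.45, 0.783 and 0.4601 CPM, 351-fold lower (62.2 to 13937) on 1 read in Aire-KO mTEChi. Of the 9 maturation-lower genes of the list, 7 were within 2-fold between Aire-KO and WT mTEChi and 2, Ly6a and Lgr5, at least 3-fold lower without Aire. The tight junction gene Cldn4 was level between Aire-KO mTEChi and mTEClo, at 379.6, 376, 569.7 and 839 CPM. Basement membrane genes and their receptors had a median ratio of 0.391, with none of 25 at least 3-fold higher and 8 at least 3-fold lower, a share near the 30.1% of all entries. The laminin chain Lamb3 was at 34.8, 215, 34.4 and 41.1 CPM and the collagen chain Col4a1 at 169, 469, 168 and 149 CPM, while the integrin chains Itga6, at 185, 211, 187 and 115 CPM, and Itgb4, at 163, 228, 135 and 81.9 CPM, were within 2-fold. Of the 8 maturation-lower genes of that list, 7 were within 2-fold of WT without Aire.

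Markers of other cells moved with these genes. The summed level of 18 fibroblast markers was 449 CPM in Aire-KO mTEChi, 3035 in mTEClo, 338 in mTEChi of the maturation pair and 352 in WT mTEChi of the Aire pair, with 13 of 18 at least 3-fold lower in Aire-KO mTEChi and a median ratio of 0.157. The collagen gene Col6a1 was at 92.7, 889.9, 47.6 and 71.02 CPM and the matrix gene Dcn at 86.5, 366, 38.8 and 40.7 CPM. None of the 18 was at 0 in either library. For 15 endothelial markers the sums were 58.6, 527, 104 and 128 CPM, with 14 at least 3-fold lower and a median ratio of 0.034. Pecam1 was at 5.44, 111, 8.91 and 17.1 CPM and the junction cadherin Cdh5 at 0.566, 44.6, 3.76 and 7.95 CPM. Both sums were highest in mTEClo, by over 3-fold against each mTEChi library. Their part in the levels of the mTEClo, progenitor and basement membrane genes was not tested. In bulk samples fewer cells of a type and less RNA per cell cannot be told apart.

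The other lists of foreign cells differed less between Aire-KO mTEChi and mTEClo. Thymocyte markers summed to 62.3 CPM in Aire-KO mTEChi and 90.4 CPM in mTEClo, with 1 of 20 at least 3-fold higher, the coreceptor gene Cd4, and 10 at least 3-fold lower. Their median ratio was 0.377, and the recombinase gene Rag1 was at 3.84, 12.9, 5.47 and 3.17 CPM. Dendritic cell and macrophage markers summed to 515, 206, 975 and 1405 CPM, with a median ratio of 0.580, 3 of 20 at least 3-fold higher and 7 lower by that much. The share lower was near the 30.1% of all entries. The sum rests on the lysozyme genes Lyz2, at 336, 50.7, 464 and 574 CPM, and Lyz1, at 101, 98.2, 355 and 647 CPM. The pan-leukocyte gene Ptprc was at 1.87, 13.3, 6.71 and 6.72 CPM, and Cd209a had no read in Aire-KO mTEChi. For this list the median ratio to mTEClo was 3.98 in mTEChi of the maturation pair and 4.08 in WT mTEChi of the Aire pair. Of its 20 genes, 14 were at least 3-fold lower in Aire-KO than in WT mTEChi, against 23.4% of all entries. Their median ratio of Aire-KO to WT mTEChi was 0.182. Of 10 B cell markers, 3 were at least 3-fold higher and 2 at least 3-fold lower, and the median ratio was 1.86. No part of these lists in the results above was tested.

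**Figure D4:**
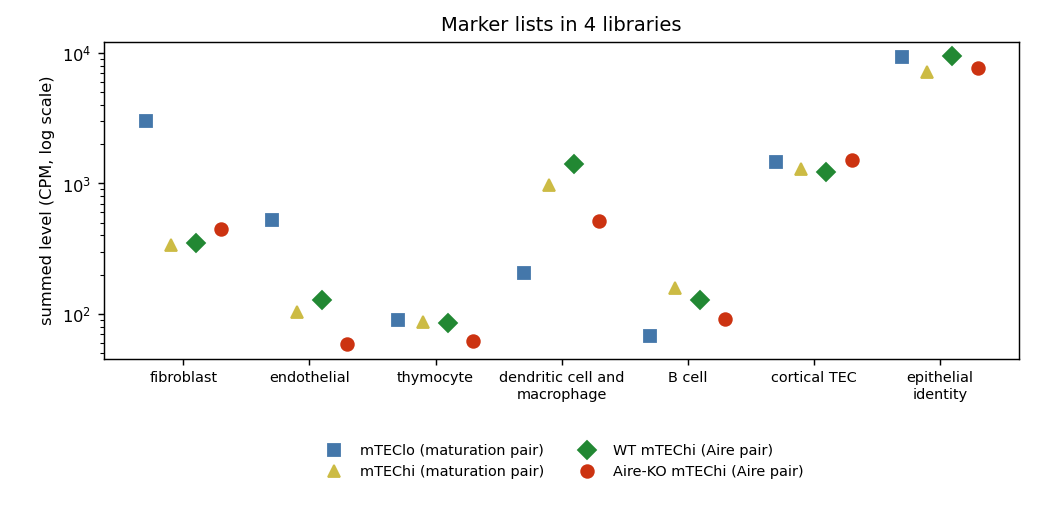
Summed levels (CPM, log scale) of 7 marker lists in the 4 libraries, 1 point a library. Fibroblast markers reach 3035 CPM and endothelial markers 527 CPM in mTEClo, against 449 and 58.6 CPM in Aire-KO mTEChi, while the epithelial list lies close together in all 4.

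Several lists hold genes of cell types that form after the Aire-expressing stage. In Aire-KO mTEChi the tuft, keratinocyte and secretory medians lay far below mTEClo. The microfold median lay near mTEClo, with members on both sides. Tuft cell genes, of the chemosensory cells that make interleukin 25, had a median ratio of 0.205, with 1 of 26 at least 3-fold higher and 16 at least 3-fold lower. The taste channel gene Trpm5 was at 26.4, 279, 41.7 and 163 CPM, 10.6-fold lower (10.2 to 10.9), the kinase gene Dclk1 at 16.7, 218, 30.3 and 84.9 CPM and the actin-binding gene Avil at 46.7, 385, 59.5 and 225 CPM. All mTEChi libraries were below mTEClo for them, and Aire-KO mTEChi was the lowest. Of the 15 maturation-lower genes of the tuft list, 12 were at least 3-fold lower in Aire-KO than in WT mTEChi. The ratio of the list to mTEClo was 0.232 in mTEChi of the maturation pair and 0.787 in WT mTEChi of the Aire pair, so the WT libraries also differed.

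Keratinocyte and cornified envelope genes had a median ratio of 0.228, with 1 of 27 at least 3-fold higher and 20 at least 3-fold lower. The keratins of the upper epidermis, Krt10, at 17.5, 274, 189 and 532 CPM, and Krt1, at 2.22, 106, 51.2 and 169 CPM, were 15.7-fold lower (15.04 to 16.4) and 47.8-fold lower (42.7 to 53.6). The protease inhibitor gene Spink5 was at 46.6, 185, 119.9 and 234 CPM and Krt16 at 54.2, 253, 112 and 274 CPM. Aire-KO mTEChi was the lowest of the 4 libraries in each. The transglutaminase gene Tgm3, at 49.7, 12.6, 45.8 and 69.5 CPM, was the one at least 3-fold higher. The list had a ratio to mTEClo of 0.689 in mTEChi of the maturation pair and 1.87 in WT mTEChi of the Aire pair.

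Secretory and goblet genes had a median ratio of 0.289, with 1 of 19 at least 3-fold higher, the mucin Muc1, at 85.6, 27.8, 102 and 144 CPM, and 10 at least 3-fold lower. The gel-forming mucin Muc5b was at 0.0629, 23.9, 7.15 and 49.4 CPM, 379-fold lower (199 to 831), the iron-binding Ltf at 1.02, 75.2, 33.8 and 96.6 CPM and the antimicrobial lectin Reg3g at 169, 366, 478 and 1869 CPM. For these 3 WT mTEChi of the Aire pair was the highest library and Aire-KO mTEChi the lowest. The median ratio of Aire-KO to WT mTEChi was 0.055 for this list. Microfold genes had a median ratio of 0.875, with 4 of 15 at least 3-fold higher and 3 at least 3-fold lower. Their median ratio to mTEClo was 1.49 in mTEChi of the maturation pair and 2.39 in WT mTEChi of the Aire pair. The median ratio of Aire-KO to WT mTEChi was 0.537 for these genes. Against WT mTEChi, 6 of 15 were at least 3-fold lower, beside 23.4% of all entries. The surface receptor Gp2 was at 25.1, 335, 132 and 451 CPM, and the fatty acid carrier Fabp5, at 1242, 211, 824 and 1214 CPM, was 5.899-fold higher (5.803 to 5.996). Ciliated, muscle and neuroendocrine genes had a median ratio of 0.376, with 1 of 22 at least 3-fold higher, Insm1, and 9 at least 3-fold lower. Beside these counts, 5.66% of all entries were higher and 30.1% lower by as much. The granins Chga, at 18.8, 153, 66.5 and 59.2 CPM, and Scg2, at 0.287, 60.5, 19.4 and 13.2 CPM, were among the lower, the second 211-fold lower (155 to 295), while the ciliary factor Foxj1 was at 76.3, 41.01, 67.2 and 76.1 CPM.

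Interferon-stimulated genes had a median ratio of 0.225, with 1 of 28 at least 3-fold higher and 19 at least 3-fold lower. Ifit3 was at 9.97, 315, 27.1 and 32.3 CPM, 31.6-fold lower (29.96 to 33.4), and the antiviral synthetase gene Oas2 at 0.545, 62.2, 3.04 and 5.04 CPM. All mTEChi libraries were below mTEClo for both, and the list had a ratio to mTEClo of 0.336 in mTEChi of the maturation pair and 0.417 in WT mTEChi of the Aire pair. Not all members followed. The guanylate-binding gene Gbp4, at 119.9, 23.7, 146 and 75.3 CPM, was 5.05-fold higher (4.81 to 5.305), and Ifit1 was at 121, 91.6, 110.4 and 71.6 CPM. Immediate early genes had a median ratio of 0.558, with none of 23 at least 3-fold higher and 6 at least 3-fold lower. The share lower was near the 30.1% of all entries. Jun was at 909.6, 3260.2, 1465 and 1132 CPM and Fos at 862, 2608, 985 and 1214 CPM, both highest in mTEClo, while Klf6 was at 1147, 1004, 1098 and 782 CPM.

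Several lists were close to mTEClo. Epithelial identity genes had a median ratio of 0.821, with none of 16 at least 3-fold higher and 1 at least 3-fold lower, Krt19, at 11.5, 140.0, 63.3 and 171 CPM. Krt8 was at 2009.7, 1338, 1554 and 2018 CPM. The 3′ end processing genes, which include the factor Clp1 that the study follows, had a median ratio of 1.15, with none of 31 past 3-fold in either direction. Clp1 was at 20.6, 17.9, 28.6 and 27.1 CPM, 1.15-fold higher (1.08 to 1.23). The miRNA machinery had a median ratio of 0.968, with none of 16 at least 3-fold higher and 1 at least 3-fold lower, the helicase gene Mov10, at 14.3, 43.8, 15.2 and 28.9 CPM. The median of each of these last 3 lists lay above the 0.758 of all entries. Genes of the p53 response and apoptosis had a median ratio of 1.43, with 5 of 20 at least 3-fold higher and 1 at least 3-fold lower. The pro-apoptotic Bax was at 97.8, 30.2, 57.8 and 60.97 CPM, the death receptor Fas at 87.6, 26.1, 101 and 46.5 CPM and the survival gene Bcl2l1 at 188, 56.4, 174 and 140.0 CPM, while the membrane gene Perp was at 128, 490.4, 243 and 548 CPM. Cortical epithelial genes had a median ratio of 0.918, with 5 of 16 at least 3-fold higher and 5 at least 3-fold lower. For them too the share lower was near the 30.1% of all entries. Tbata was at 552, 54.4, 381 and 365 CPM and Ctsl and Cxcl12, given above, were low. The medians of the miRNA, cortical epithelial and microfold lists lay on either side of 1 depending on the scaling or filter.

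**Figure D5:**
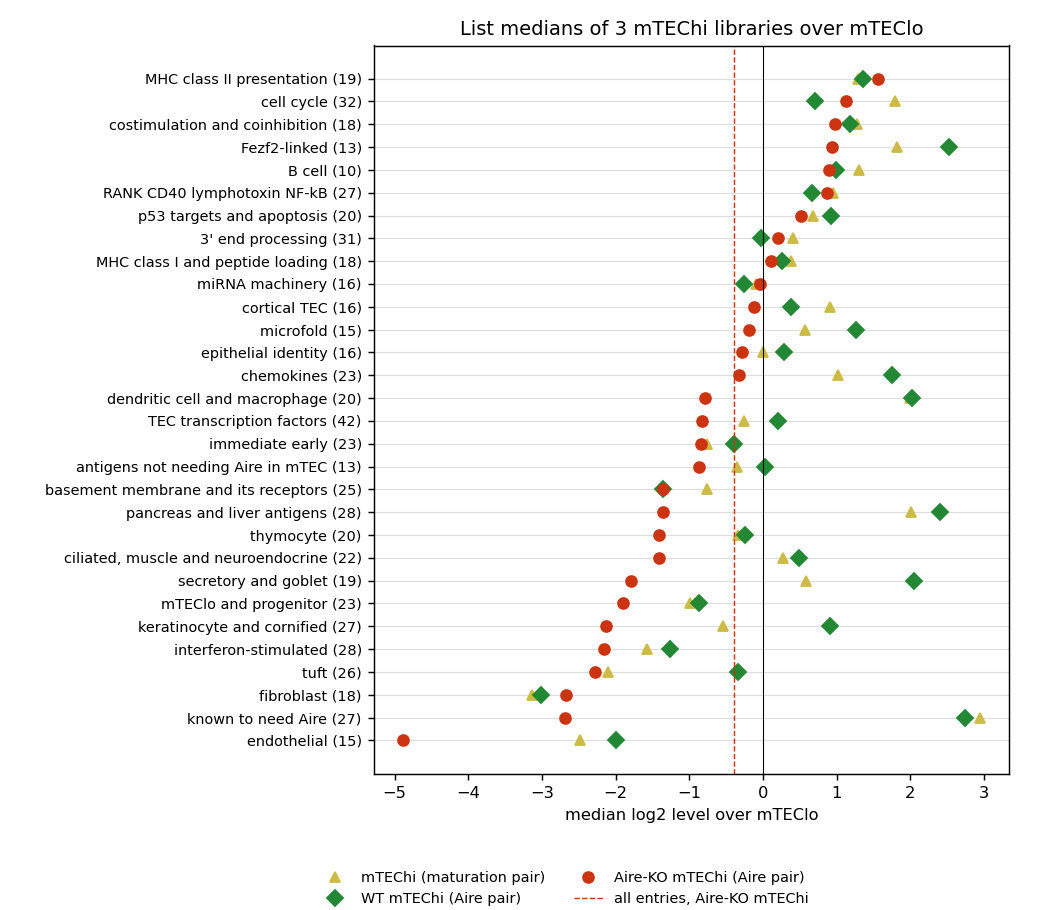
Median log2 ratio to mTEClo of each of 30 gene lists, with the number of genes compared in parentheses, for Aire-KO mTEChi and the WT mTEChi libraries of both pairs. The dashed line is the median over all entries in Aire-KO mTEChi, and the 3 points of a row share mTEClo. The points lie together for class II, costimulation and NF-kB genes, and the Aire-KO point lies far left of the others for genes known to need Aire and for secretory genes.

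Beside Aire, the largest ratios were in genes that no list held. Ctla4, the inhibitory receptor of T cells that binds Cd80 and Cd86, was at 104, 0.661, 8.39 and 16.1 CPM, 158-fold higher (119 to 213), the highest fold of any coding entry with 10 or more CPM. Both WT mTEChi libraries were far below Aire-KO mTEChi. Thymocyte markers summed to 62.3 CPM in Aire-KO mTEChi and 90.4 CPM in mTEClo, as above, with Cd4, at 12.8, 3.83, 16.9 and 17.5 CPM, the member of largest fold, and their part in the level of Ctla4 was not tested. The interleukin 13 gene Il13 was at 199, 3.61, 141 and 110.1 CPM, 55.1-fold higher (48.9 to 62.4), and Il12a, a subunit of interleukin 12, at 78.7, 2.33, 50.2 and 55.4 CPM. Ccr6, the receptor of Ccl20, at 14.2, 0.3101, 12.3 and 7.103 CPM, and the neuropeptide receptors Prokr2, at 202, 5.65, 117 and 107 CPM, and Npsr1, at 41.7, 1.33, 20.1 and 20.5 CPM, were high in all 3 mTEChi libraries. Dnmt3l, a cofactor of DNA methylation, was at 91.7, 1.87, 31.5 and 24.3 CPM, 48.9-fold higher (41.4 to 58.3), but it overlaps the start of Aire on the other strand (chr10:77504692-77526367 of mm9, plus strand), so reads of the 2 genes cannot be told apart there. The guidance gene Slit1 was at 45.6, 1.25, 28.7 and 11.6 CPM, the tryptophan enzyme gene Kynu at 82.4, 2.67, 54.9 and 32.04 CPM and the phosphatase gene Dusp15 at 57.9, 1.73, 17.8 and 12.8 CPM. In Dnmt3l, Slit1 and Dusp15 the level was highest in Aire-KO mTEChi and they were at least 3-fold higher there than in its WT partner.

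The maturation-higher entries that were within 2-fold without Aire held other hormones and receptors. The neuropeptide genes Adcyap1, at 4.52, 0.148, 12.6 and 6.83 CPM, and Calca, at 21.7, 1.98, 51.7 and 38.8 CPM, were 30.5-fold higher and 10.96-fold higher in Aire-KO mTEChi. The B cell maturation receptor Tnfrsf17 was at 15.7, 0.607, 15.9 and 13.4 CPM, the gut addressin Madcam1 at 15.8, 1.56, 45.2 and 26.7 CPM and the tight junction gene Cldn13 at 63.6, 2.47, 62.97 and 56.6 CPM, 25.8-fold higher (22.3 to 30.01). Mstn, the inhibitor of muscle growth, was at 8.76, 0.796, 21.3 and 11.9 CPM and Pdyn, which encodes opioid peptides, at 7.03, 0.634, 18.7 and 9.74 CPM. Crhbp, a carrier of the stress hormone CRH, was at 73.99, 3.6, 86.8 and 46.95 CPM. All were present without Aire at 10-fold or more over mTEClo, although many are genes of single tissues. They were chosen on the ratios of mTEChi to mTEClo and of Aire-KO to WT mTEChi, which share libraries with this fold, so it is a description.

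The maturation-higher entries with the largest loss without Aire were of other tissues as well. Acan, the cartilage proteoglycan, was at 0.00699, 1.73, 12.6 and 7.199 CPM, 247-fold lower (43.5 to 9824). The retinal chaperone gene Aipl1 was at 0.00699, 0.485, 14.8 and 9.73 CPM and the neuronal phosphatase gene Ptpn5 at 0.00699, 1.32, 12.6 and 8.196 CPM, each on 1 read in Aire-KO mTEChi. Krt13 of mucosal epithelium was at 0.04196, 1.42, 33.3 and 28.99 CPM, the protease gene Prss29 at 0.04196, 0.836, 33.9 and 31.03 CPM and the embryonic globin Hba-x at 0.02797, 0.405, 12.8 and 16.5 CPM. Each of these was below mTEClo in Aire-KO mTEChi and above it in both WT mTEChi libraries. The salivary genes Dcpp2 and Dcpp3, at 0.00699, 0.499, 11.5 and 8.34 CPM and at 0.00699, 0.5798, 13.8 and 12.9 CPM, are near-identical copies and are uncertain.

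The maturation-higher entries that were higher still without Aire were few. Beside Dnmt3l, Slit1 and Dusp15 they held the G protein regulator Rgs17, at 170.3, 26.02, 80.6 and 40.3 CPM, the exchange factor Psd3, at 236, 24.1, 73.3 and 58.7 CPM, the synaptic vesicle gene Syn2, at 74.1, 5.31, 21.9 and 16.2 CPM, and Lrat, which makes retinyl esters, at 36.4, 2.18, 32.2 and 9.86 CPM. Each was at least 3-fold higher in Aire-KO than in WT mTEChi, and mTEChi of the maturation pair lay between them.

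Of the maturation-lower entries, 1941 of 3540 had enough reads in both pairs, since many were low in all mTEChi. Of these, 873 (45.0%) were within 2-fold between Aire-KO and WT mTEChi, with a median ratio to mTEClo of 0.210 in Aire-KO mTEChi and 0.207 in mTEChi of the maturation pair. A further 647 (33.3%) were at least 3-fold lower without Aire and 94 (4.84%) at least 3-fold higher. Over all entries these 3 shares were 65.3%, 23.3% and 1.24%, so fewer maturation-lower entries than entries in all were within 2-fold. Among the 905 with 10 or more CPM in mTEClo, 515 (56.9%) were within 2-fold, against 82.9% of all entries with as much in mTEChi or mTEClo. By selection the 905 were lower in mTEChi of the maturation pair, and the class compares mTEChi libraries, so the levels behind the 2 shares differ. Those with the largest difference in the maturation pair were the hedgehog receptor components Gas1, at 11.1, 169, 4.71 and 12.1 CPM, and Boc, at 20.3, 187, 6.099 and 14.7 CPM, with the stromal genes Col6a2, at 83.3, 889.7, 30.97 and 58.1 CPM, Ccl11, at 54.9, 507, 23.8 and 30.3 CPM, and Tagln, at 85.6, 307, 15.7 and 53.2 CPM. Genes of fibroblasts and smooth muscle are among them, and the sums of fibroblast markers above move with them.

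The largest folds below mTEClo included genes of vessels and of hormones. The parathyroid hormone gene Pth was at 0, 26.3, 7.45 and 5.31 CPM. With its count of 0 taken as 3 reads it was 1255-fold lower in Aire-KO mTEChi, and the interval began at 1019.9. The endothelial genes Selp, at 0.175, 68.4, 4.49 and 2.905 CPM, Tie1, at 0.217, 23.9, 1.88 and 2.73 CPM, Robo4, at 0.03496, 12.1, 4.04 and 2.81 CPM, and Adgrl4, at 0.02797, 17.5, 0.563 and 1.25 CPM, were 391-fold lower, 110.3-fold lower, 347-fold lower and 627-fold lower. The endothelial markers moved with these, and their part was not tested. Scg2 and Muc5b, described above, were also in this set. Lars2, a mitochondrial tRNA synthetase gene, was at 4064, 16009.5, 1028 and 853 CPM, high in the same libraries as the ribosomal RNA precursor. Postn, a matrix gene of fibroblasts, was at 40.3, 211, 9.24 and 12.1 CPM, at least 3-fold higher in Aire-KO than in WT mTEChi and below mTEClo.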

How the data were processed

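RNA of 4 libraries of sorted mTEC, WT and Aire-KO mTEChi and mTEChi and mTEClo, was analysed. Per the labels and methods, the authors trimmed paired reads, pooled them as single reads and filtered them with CASAVA. Reads were aligned to mm9 with Bowtie 1.0.0, and those wholly within exons of RefSeq entries were counted with bedtools. The deposited signal values are counts divided by a DESeq size factor of the pair. The deposited count table of the actinomycin D series gave its untreated library, used only in alternative fits, and its treated libraries were not analysed here. The deposited fold and p-value columns of the authors hold their own comparisons and were not used. No sample name heads either column of the Aire pair, and the one used as denominator in the study's code was read as Aire-KO.

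All values were whole multiples of a step per library within 0.1, so reads were recovered and scaled to CPM over shared entries, with no pseudocount. Entries with at least 10 normalised counts over the 2 libraries of a comparison were classed at 3-fold and 2-fold, the limits of the study. With 1 Aire-KO and 1 mTEClo library the folds were not tested. As alternatives, edgeR 4.0.16 quasi-likelihood and DESeq2 1.42.0 fits (R 4.3.3) took 3 untreated WT mTEChi libraries as replicates, with Benjamini-Hochberg adjustment at 0.05 over all entries. The untreated library of the actinomycin D series is among them. Per the paper, that series was made with another library kit and sequenced single-end, while the sorted pairs were sequenced paired-end. The spread in these fits therefore includes that difference. In simulated data the edgeR fit of Aire-KO mTEChi against mTEClo recovered 0% of 200 entries changed 3-fold and 22.5% changed 8-fold. Other steps used scipy 1.17.1, pandas 2.3.3, numpy 2.4.6 and matplotlib 3.10.9 in Python 3.11.15.

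The comparison, its 30 lists (627 of 634 symbols in the files, 1 entry a symbol, that of highest mean) and all tests were chosen with earlier results of these data known. Symbols came from the RefSeq table of GRCm38.p6 and matched 98.1% of entries. Genes named were, per direction, the 15 coding entries of largest fold with 10 or more CPM, per list up to 6 of highest mean and up to 4 of largest fold each way, 12 per class of the maturation pair, Aire and Clp1. Alb, Ccl20, Ccl22, Epcam, Fgg, H2-DMa, H2-DMb1, H2-DMb2, Ins2, Rfx5, Rfxank, S100a9, Tff3, Top2a and Xcl1, and the members named only as the count they make up, were named after their values were seen. A few genes are not reported here.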

Additional observations from a re-analysis of the deposited data

Results flagged for a closer look

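For 9 gene lists the median ratio to mTEClo lay on one side of 1 in Aire-KO mTEChi and on the other side in both WT mTEChi libraries. With 1 Aire-KO mTEChi library and 1 mTEClo library the difference was not tested, and all ratios share the mTEClo library. The medians in Aire-KO mTEChi were 0.7992 for chemokines, 0.8213 for epithelial identity, 0.1556 for genes known to need Aire, 0.3911 for pancreas and liver antigens, 0.8746 for microfold genes, 0.3758 for ciliated, muscle and neuroendocrine genes, 0.2893 for secretory and goblet genes, 0.918 for cortical epithelial genes and 0.5799 for dendritic cell and macrophage genes. The medians of the microfold and cortical lists changed side with the setting. That of epithelial identity was 1.002 in mTEChi of the maturation pair, level with mTEClo.

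The same held for 12 genes, where the difference was likewise not tested and where the genes had been chosen for being lower without Aire. The ratio of Aire-KO mTEChi to mTEClo was 0.01206 in Dcpp3, 0.01402 in Dcpp2, 0.01441 in Aipl1, 0.005292 in Ptpn5, 0.004052 in Acan and 0.02557 in Sbpl. It was 0.003704 in Sst, with its count of 0 taken as 3 reads, 0.01365 in Calb2, 0.05019 in Prss29, 0.02963 in Krt13, 0.06915 in Hba-x and 0.01879 in Oas1e.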

How the results depend on the processing

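Among 328 recomputed values of the genes named for their fold or class, 121 moved by more than the gene's spread between the 2 WT mTEChi libraries. None past 3-fold changed direction under another scale factor, total or the chained ratio. Another scale factor or total shifts every gene alike, by up to 0.26 on the log2 scale. It could not turn a gene past 3-fold, so only the chained ratio could have changed a direction. Genes named only from lists were not recomputed singly. A minimum of 100 in place of 10 normalised counts left 4502 entries at least 3-fold lower than mTEClo, 27 maturation-lower entries at least 3-fold higher in Aire-KO than in WT mTEChi, and 479 entries apart between the WT mTEChi libraries of the pairs. The ratio chained within pairs gave 2487 higher entries. Asking for 10 or more CPM, chosen after seeing the data, gave 1046 higher and 1483 lower entries, 853 and 345 maturation-higher entries within 2-fold and lower without Aire, 515 and 14 maturation-lower entries within 2-fold and higher without Aire, and 177 apart between the WT libraries. Fewer entries were tested in each. Fits across all entries with 3 untreated WT mTEChi libraries called 315 higher and 1300 lower by edgeR, and 972 and 3089 by DESeq2. Leaving out each WT library in turn, edgeR called 268 to 1352 higher and 995 to 3253 lower, with 1352 and 3253 without the untreated library of the actinomycin D series and 457 and 2707 without WT mTEChi of the Aire pair. The lone libraries were assumed to vary like those that remained. Of 30 list medians, 27 stayed on 1 side of mTEClo over all settings. DESeq2 size factors moved the median of all entries by 0.18 and TMM factors by 0.26 on the log2 scale. No paired analysis was possible because Aire-KO and WT mTEChi share only replicate number 2 in the labels, and Aire-KO mTEChi and mTEClo share none. Depth limits low entries: 3 reads equal 0.0210 CPM in Aire-KO mTEChi and 0.0405 CPM in mTEClo.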
